A study of Mus musculus with 20 samples.

Results

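The regions whose chromatin opened or closed between day 0 and day 1 of reprogramming were followed in mouse embryonic fibroblasts (MEFs) that had received Nanog+Oct4 or NanogN70+Oct4. ATAC-seq, in which the transposase Tn5 cuts and tags accessible DNA, was represented here by the peaks called in each library. Overlapping peaks (by 1 bp or more) of the series' 20 libraries were joined, which gave 335762 regions. Open means that the library in question had a peak within the region, and closed that it had none. A region was gained when it was closed in both day 0 libraries and open in both day 1 libraries, and it was lost when the reverse held. By this rule 2412 regions were gained (0.718% of the 335762) and 10285 were lost (3.06%). The rule used 4 of the 20 libraries, and regions over exons of Nanog, Pou5f1, Ss18 and Gm1826 were left out, since reads of retroviral inserts can fall on such exons.

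All 4 libraries came from MEFs that carried an Oct4-GFP (OG2) reporter and that had been infected with pMXs retroviruses made in Plat-E packaging cells. In the first path the retroviruses carried native Nanog and Oct4. In the second path they carried Oct4 and NanogN70, called NanogBiD in the study, in which the N-terminal, BRG1-binding part of the BAF subunit SS18 was fused to NANOG. Day 0 was the end of infection, when the medium was changed to the inducing medium iCD3, so a day of transgene activity and a day in iCD3 cannot be told apart in the step from day 0 to day 1. Each path had 1 library on each day, and the paths were different treatments and not replicates of each other. The MEF library (1) and the ESC libraries (3, from ESCs grown with 2i and LIF) were not used by the rule and served to look up where each region was open. The source field of the ESC samples says MEF, and these samples were taken as ESCs by their titles.

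NANOG and OCT4 are transcription factors of the pluripotency network, and the BAF complex uses ATP to move or evict nucleosomes. In fibroblasts, many distal accessible sites are held by AP-1 (dimers of FOS and JUN family proteins) and by TEAD factors, which recruit the coactivators YAP and TAZ and respond to adhesion and serum. In the course of reprogramming such fibroblast sites are closed and those used in ESCs are opened.

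Examples of the DNA under the summits were chosen for the letters they carry and do not represent all members. Each sequence below is the 121 bases centred on the summit of the strongest peak, plus strand, 5′ to 3′, on GRCm38 (mm10). Capitals mark the letters of TEAD (GGAATG), AP-1 (TGACTCA), OCT (ATGCAAAT), SOX (ACAANGG) or the ZEB and SNAI E-box (CACCTG), each searched on both strands. Letters are marked anywhere in the 121 bases, while the shares given later count the 25 bp on each side of the summit. The first 5 sites were lost. They are shown because they are the ones among the 8 strongest lost regions that carry TEAD or AP-1 letters, with the site at Ccl7 added as a lost promoter. The other 4 of the 8 carry none of the marked letters:
Hspa4, 54.4 kb downstream of its start site, chr11:53245659-53245779: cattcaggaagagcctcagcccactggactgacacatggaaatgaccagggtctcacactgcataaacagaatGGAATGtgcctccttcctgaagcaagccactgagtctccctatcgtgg
Adgrf5, intron, chr17:43407661-43407781: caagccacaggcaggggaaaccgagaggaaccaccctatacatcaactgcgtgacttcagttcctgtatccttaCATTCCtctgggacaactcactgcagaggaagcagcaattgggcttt
Ccl7, promoter, chr11:82045530-82045650: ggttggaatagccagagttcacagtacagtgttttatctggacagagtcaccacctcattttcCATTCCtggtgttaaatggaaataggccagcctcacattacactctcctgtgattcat
Upk3bl, 5.04 kb upstream, chr5:136051574-136051694: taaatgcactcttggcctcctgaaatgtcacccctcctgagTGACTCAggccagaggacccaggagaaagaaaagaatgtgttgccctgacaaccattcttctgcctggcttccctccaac
Rasa4, intron, chr5:136094452-136094572: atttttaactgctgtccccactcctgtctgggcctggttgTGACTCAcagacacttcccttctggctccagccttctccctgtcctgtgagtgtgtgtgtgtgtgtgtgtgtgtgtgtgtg

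The next site stayed open in all 4 libraries with a much lower pileup on day 1, and its TEAD letters lie close to the summit:
Intergenic, more than 100 kb from a protein-coding start site, chr9:63896479-63896599: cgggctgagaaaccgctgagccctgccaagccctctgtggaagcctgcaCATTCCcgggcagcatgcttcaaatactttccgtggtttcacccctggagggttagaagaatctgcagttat

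The last 5 sites were gained. They are the ones among the 8 strongest gained regions that carry any of these letters, and the strongest gained region that was open in ESCs and not in MEFs:
Dennd1b, intron, chr1:139065148-139065268: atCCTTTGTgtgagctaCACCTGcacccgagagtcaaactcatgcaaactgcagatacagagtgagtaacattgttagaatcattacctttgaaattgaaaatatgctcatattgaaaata
Daam2, intron (nearest start site Mocs1), chr17:49484663-49484783: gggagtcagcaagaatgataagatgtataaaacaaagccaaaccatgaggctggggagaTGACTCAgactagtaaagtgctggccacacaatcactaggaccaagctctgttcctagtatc
Itga9, intron (nearest start site Ctdspl), chr9:118890865-118890985: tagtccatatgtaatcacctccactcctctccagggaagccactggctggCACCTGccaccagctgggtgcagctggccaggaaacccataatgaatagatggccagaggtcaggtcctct
Intergenic, chr14:89927600-89927720: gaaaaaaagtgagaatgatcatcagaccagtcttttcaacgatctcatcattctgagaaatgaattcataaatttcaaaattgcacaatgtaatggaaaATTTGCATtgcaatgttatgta
Intergenic, open in ESCs, chr13:110556036-110556156: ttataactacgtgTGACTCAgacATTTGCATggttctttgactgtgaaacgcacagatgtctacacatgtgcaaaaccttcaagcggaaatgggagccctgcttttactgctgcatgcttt

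The libraries differed in how readily they gave peaks. The day 0 libraries had 69575 (Nanog) and 107038 (NanogN70) peaks and the day 1 libraries 65872 and 77662. At 14212 regions open in all 20 libraries, the median summit pileup, the number of tags over the summit, was 16 on both days with Nanog. With NanogN70 it was 24 on day 0 and 16 on day 1. In MEFs it was 39, so pileups in MEFs and in the day 0 libraries are not on 1 scale. The sources used here state no read numbers. Depth is therefore unknown, and the part of this drop in the NanogN70 counts was not tested. Promoters of fibroblast markers had a peak for 9 or 10 of 10 genes in each of the 4 libraries, and those of ESC markers for 2 or 3 of 11, with none at Dppa4, Dppa5a, Zfp42, Fgf4 or Prdm14. Leukocyte markers had one for 4 of 15 in every library, with none at Ptprc or Cd3e, and endothelial markers for 5 of 9. In the ESC libraries 8 of the 10 fibroblast markers also had a peak, all but Col3a1 and Postn. Promoter peaks of the fibroblast list thus told MEFs from ESCs only at those genes. Of the 11 ESC markers, 10 had a peak in each ESC library, all but Nanog, whose exon regions were left out. The MEF library had a peak at 5 of the 11, more than any of the 4 libraries.

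In both paths fewer regions were open on day 1 than on day 0, with 54107 after 59446 with Nanog and 66839 after 94991 with NanogN70. With Nanog, 23645 of the 59446 regions open on day 0 were closed on day 1 (39.8%) and 18306 were newly open, or 1.29 closed for each opened. With NanogN70, 44506 of 94991 were closed (46.9%) and 16354 newly open, or 2.72 closed for each opened. The excess of closed over opened regions is the difference in open regions between the days, and its dependence on depth was not tested. Of the regions closed with Nanog, 43.5% were also closed with NanogN70 and 1.91% were opened there. Of those opened with Nanog, 13.2% were also opened with NanogN70 and 15% were closed there. Seen from NanogN70, 23.1% of the closed and 14.7% of the opened regions made the same change with Nanog. These shares are not corrected for how many regions each path closed or opened in all.

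Of the 48375 regions open in both day 0 libraries, 21.3% were lost, 28093 (58.1%) were open in all 4 libraries and are called kept, and the rest closed in 1 path. Of the 229700 regions closed in both day 0 libraries, 1.05% were gained, while 20066 opened in 1 path only. With each of the 4 libraries limited to its 65850 best peaks, 3664 regions were gained and 6766 lost, and with a minimum score of 100 in all libraries 867 were gained and 6359 lost. The gained regions were weak. The lower of their 2 day 1 peak scores (by MACS, −10 times log10 of the p-value) had a median of 62.7 and a range of 50.02 to 352.4, 42.2% of them lay under 60, and 20 reached 200. For lost regions the lower of the 2 day 0 scores had a median of 72.3 and a range of 50.01 to 849.7, with 536 at 200 or more. Kept regions had medians of 184.4 on day 0 and 145.9 on day 1. No peak of any library had a score under 50, so a region called closed can hold signal below that limit, and values just outside the rule are not in the peak lists.

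Fewer of the strong than of the weak day 0 regions were lost. Of the regions with a lower day 0 score between 50 and 75, 39.7% were lost. The share was 20.6% between 100 and 150, 7.56% between 200 and 300, and 0.623% (39 of 6263) at 400 or more. These scores belong to the libraries that chose the members and are given as a description.

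Most lost regions were open in MEFs and not in ESCs. A peak was present in the MEF library at 7823 of the 10285 (76.1%), compared with 83.3% of all regions open in both day 0 libraries, and 6262 (60.9%, 95% exact interval 59.9 to 61.8) were MEF-only, that is, open in MEFs but in none of the ESC libraries. Among all regions open in both day 0 libraries the MEF-only share was 37.7%. When the Nanog day 0 library was left out, the MEF-only share of lost regions was 33.5%. Of the lost regions 128 (1.24%) were ESC-only (open in at least 2 ESC libraries and closed in MEFs), and 2294 (22.3%) were open in neither MEFs nor ESCs, compared with 0.996% and 15.4% of all regions open in both day 0 libraries. In a bulk library, fewer cells with a region open and less opening in each cell cannot be told apart. The intervals given here and below cover counting error over regions and not the variation between cultures.

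The share lost differed between classes. Of the MEF-only regions that were open in both day 0 libraries, 34.4% were lost, compared with 30.8% of the regions open in neither MEFs nor ESCs, 26.6% of ESC-only regions and 5.20% of the regions shared by MEFs and all 3 ESC libraries. The shared class thus stood apart from the other 3. Promoters, taken as the 2 kb around a start site, were seldom lost, at 5.23% of 13645, compared with 19% of exonic, 28.7% of intronic and 27.9% of intergenic regions. Promoters were thus 6.94% of the lost and 42.5% of the kept regions. At the same day 0 score of 200 to 300, 15.1% of MEF-only and 7.56% of all regions were lost.

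Most lost regions had no later peak, and those open in both MEFs and ESCs had one more often than lost regions as a whole. No library from day 3 to day 12 had a peak at 6394 of the lost regions (62.2%), and at 4302 of those that were MEF-only (68.7%). On each later day, 10.1% to 22.3% of the lost regions were open with Nanog and 7.11% to 13.4% with NanogN70. For all regions open in both day 0 libraries these shares were 45.5% to 63.7% and 40.6% to 55%. The 1265 lost regions open in MEFs and at least 2 ESC libraries were open in 39.5% to 67.1% of cases with Nanog and in 44% to 63.6% with NanogN70 on each later day. Over all regions shared by MEFs and all 3 ESC libraries, a stricter class, the shares were 70.9% to 83.7% and 73.2% to 85.3%. The lost ones were thus open less often than that class. The highest return was on day 8 of the Nanog path, and 113 lost regions were open in all 12 later libraries.

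**Figure D1:**
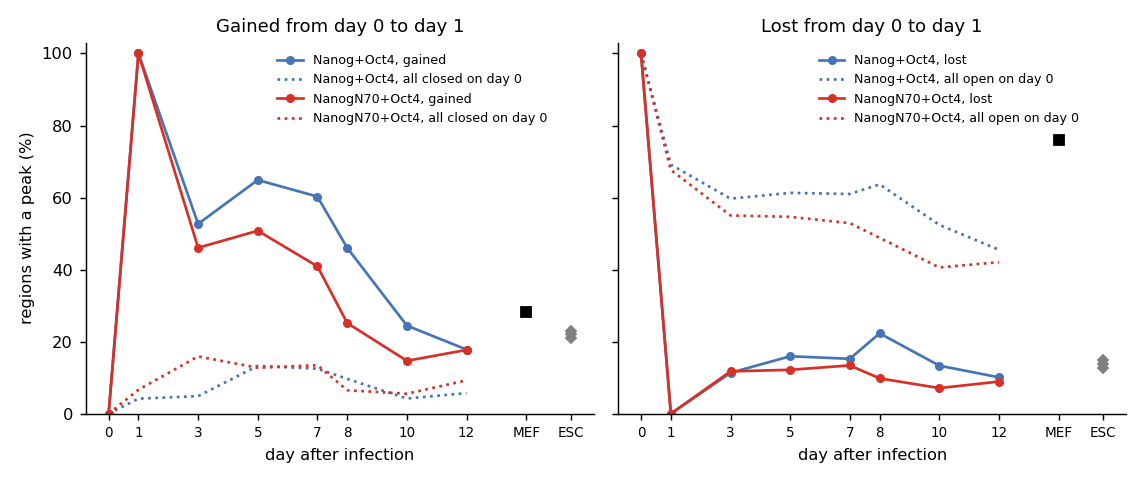
Share of gained (left) and lost (right) regions with a peak (%) against the day, for Nanog+Oct4 (blue) and NanogN70+Oct4 (red), with 1 library per point, MEFs as a black square and the 3 ESC libraries as grey diamonds. Days 0 and 1 are fixed by the rule. Gained regions had a peak in 64.9% (Nanog) and 50.8% (NanogN70) of cases on day 5 and in 17.8% and 17.7% on day 12, above the dotted lines for all regions closed in both day 0 libraries, and lost regions stayed below the dotted lines for all regions open in both day 0 libraries.

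The 8 strongest lost regions lay outside promoters, with 1 exception, and none was open in ESCs. A region 75.8 kb downstream of the start site of Slc28a3, a nucleoside transporter, had pileups of 27 (Nanog) and 33 (NanogN70) on day 0 and no peak in either library on day 1. It had a pileup of 76 in MEFs, no peak in ESCs and a peak in 1 later library. The exception was the promoter of Tjap1, a tight junction-associated protein, with pileups of 41 and 43 on day 0, 80 in MEFs and a peak in 6 later libraries. These were the lost regions with the highest scores, and both were without a peak on day 3 as well as on day 1.

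Of the sites printed above, the Hspa4 site had pileups of 27 and 31 on day 0, 42 in MEFs and no peak in ESCs or in any later library. The site in an intron of Adgrf5, an adhesion G protein-coupled receptor, had 25 and 23 on day 0, 95 in MEFs and a peak in 1 later library. The site of Rasa4, a RAS GTPase-activating protein, had 21 and 17 on day 0, 16 in MEFs and a peak in 6 later libraries. The first pair, which carry TEAD letters, stayed closed apart from that single library. The AP-1 site upstream of Upk3bl, like that of Rasa4, was found open again later. It had 28 and 29 on day 0 and 90 in MEFs, was closed on days 1 and 3 in both paths and was open again in 10 of the 12 later libraries, with 23 and 37 on day 12. These single sites do not stand for their groups. Of the lost MEF-only regions, 72.3% of those with TEAD and 73.3% of those with AP-1 letters had no later peak. The remaining 2 of the 8 strongest lost regions were upstream of 1190002N15Rik (23 and 45, closed in MEFs) and in an intron of Mbnl1, a splicing regulator (30 and 36, with 32 in MEFs).

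The share of MEF-only regions that were lost differed with the letters at the summit. These 18228 regions, open in MEFs, in no ESC library and in both day 0 libraries, were sorted by the letters within 25 bp of the day 0 summit. Of 1344 regions with TEAD and no AP-1 letters, 682 were lost (50.7%, 48.0 to 53.4). Of 2860 regions with AP-1 and no TEAD letters, 659 were lost (23.0%, 21.5 to 24.6). Regions with neither were lost in 35.1% of cases (4855 of 13823) and the 201 regions with both in 32.8%. Most lost MEF-only regions, 4855 of 6262, thus had neither. Kept in both paths were 25.3% of the TEAD, 48.5% of the AP-1 and 38.1% of the regions with neither, and the rest closed in 1 path. Among MEF-only regions the TEAD group thus had the highest share lost and the AP-1 group the lowest, with intervals that did not overlap those of the other large groups. In regions open in neither MEFs nor ESCs the shares were 46.7% (TEAD), 24.2% (AP-1) and 30.3% (neither motif). In regions shared by MEFs and ESCs they were 14.7%, 7.82% and 4.86%, and over all regions 41.3%, 21.1% and 20%, so the AP-1 group was not the lowest there. The motifs can overlap, since an AP-1 run that ends in CA can go on into CATTCC, the TEAD letters on the other strand. A match is a run of letters and does not show that the factor was bound.

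Among MEF-only regions the order was the same at each level of day 0 score. Between 50 and 100, 69.2% of TEAD, 50.1% of neither and 37.3% of AP-1 regions were lost. Between 100 and 200 the shares were 49.6%, 29.9% and 17.2%. At 200 or more they were 18.0% (58 of 323), 11.3% and 4.36% (30 of 688). The order also held in each path alone. With Nanog, 67.2% of the TEAD and 38% of the AP-1 regions open on day 0 were closed a day later. The NanogN70 shares were 71.0% and 52.0%. MEF-only regions with neither motif lay between, at 53.7% and 58.5%.

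**Figure D2:**
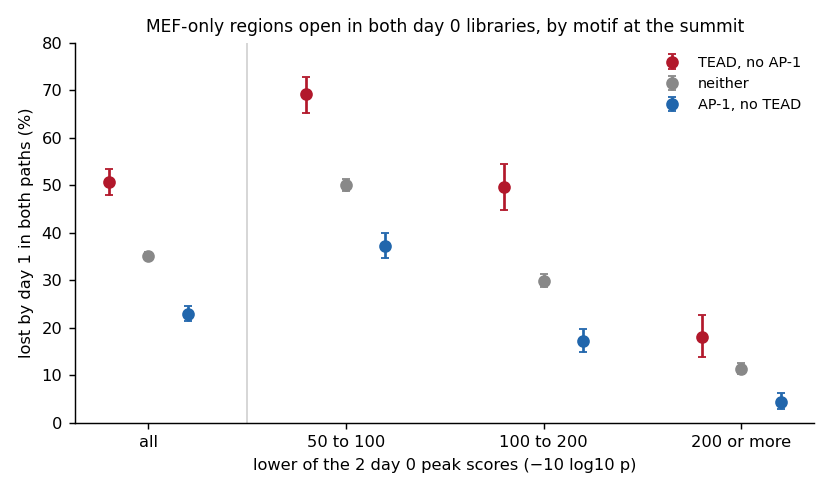
Share of MEF-only regions open in both day 0 libraries that were lost by day 1 (%), for regions with TEAD and no AP-1 letters (red), with AP-1 and no TEAD letters (blue) and with neither (grey) within 25 bp of the summit, over all such regions and by the lower of the 2 day 0 peak scores. Bars are 95% exact intervals over regions. The TEAD group was highest (50.7% over all regions) and the AP-1 group lowest (23.0%) in every score range.

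Among regions that stayed open, those with TEAD letters had the lowest day 1 pileups relative to day 0, after each pileup was divided by the median pileup of the library at the 14212 regions open in all libraries. Among MEF-only kept regions with TEAD letters, the median log2 ratio of day 1 to day 0 was −0.645 with Nanog and −0.54 with NanogN70 (340 regions). With AP-1 letters it was −0.415 and −0.25 (1388 regions), and with neither −0.40 and −0.25, so that these groups hardly differed from each other. A ratio below 1 was found in 78.5% and 77.6% of the TEAD regions, compared with 68.5% and 63.4% of all MEF-only kept regions. Once lost, the groups did not part in the same way. No later library had a peak at 72.3% of the lost TEAD and 73.3% of the lost AP-1 regions, compared with 67.4% of those with neither.

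Over all 10285 lost regions, TEAD letters were at the summit in 10.9%, compared with 4.57% of distal kept regions, 2.4% of gained regions and 4.48% of all regions. Among the 536 lost regions with a score of 200 or more the share was 14.4%. RUNX letters (TGTGGTT) were in 2.79% of lost, 1.37% of gained and 1.87% of all regions, and in 4.29% of the strongest lost regions. The SRF CArG box, bound by the serum response factor, was in 0.369% of lost and 0.229% of all regions. AP-1 letters were in 9.11% of lost and 12.2% of distal kept regions, and in 4.90% of all regions. Over all kept regions, promoters included, TEAD letters were in 3.48% and AP-1 letters in 7.76%. TEAD letters were thus more frequent in lost than in kept regions by either comparison, whereas AP-1 letters were less frequent than in distal kept regions and more frequent than in all kept regions.

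Many genes lay next to a lost region. A gene was given the regions for which its start site was the nearest protein-coding one within 100 kb. Of 21829 protein-coding genes, 4965 had a lost region (22.7%) and 1586 had a gained region (7.27%). In 18 gene lists chosen for the tissue and the treatment, 182 of 447 genes had a lost region and 64 a gained one, so list genes as a whole had such regions more often than all genes. The share of the regions open on day 0 that were lost takes the number of such regions into account, and it was 18.6% over all genes. It can still vary with the place of the regions, since promoters were seldom lost (5.23%) and intronic and intergenic regions more often (28.7% and 27.9%).

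By the share of genes with a lost region, the fibroblast, TEAD and YAP, WNT and serum response lists were the highest, and by the share of day 0 regions lost the WNT, SOX, retinoic acid and fibroblast lists were. Of 35 genes of fibroblast matrix and identity, 25 had a lost region and 4 a gained one, and 29.3% of the day 0 regions of that list were lost. In the TEAD and YAP list these numbers were 12 and 3 of 18 genes and 24.6%. For WNT genes they were 15 and 2 of 24 and 33.3%, for TGF-beta and BMP genes 19 and 6 of 32 and 21.5%, and for FGF and ERK feedback genes 11 and 6 of 19 and 18.5%. For serum response and immediate early genes they were 15 and 8 of 24 and 22.5%. For retinoic acid genes they were 7 and 1 of 16 and 29.8%, and for the SOX family 7 and 1 of 16 and 32.1%. The last value rests on 28 regions. When a gene was given the regions in its body and the 10 kb around it, 15 fibroblast (42.9%), 10 TEAD and YAP (55.6%), and 9 WNT genes (37.5%) had a lost region, against 22.0% of all genes. The serum response and retinoic acid lists (50% each) and the TGF-beta and BMP list (46.9%) then also stood above the fibroblast list. The ranking of the lists thus depended on the assignment.

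In the other 10 lists, 9.76% to 23.7% of the day 0 regions were lost. Of 30 NF-kappaB and inflammatory genes, 13 had a lost region and 4 a gained one (23.1% of day 0 regions lost), and of 27 epithelial genes 7 and 3 (23.7%). AP-1 family genes had 7 and 4 of 20 (12.9%), LIF and STAT3 genes 5 and 2 of 14 (14.9%), and stress genes 9 and 1 of 26 (11.8%). Cell cycle and senescence genes had 9 and 8 of 26 (15.1%), and sterol and lipid synthesis genes 7 and 6 of 28 (12.2%). The gained counts depended on the assignment. By gene body and the 10 kb around it, 1 sterol gene had a gained region and no AP-1 family or LIF and STAT3 gene did, while the cell cycle and the serum response lists had 5 genes each, against 7.11% of all genes. BAF subunits had 4 and 3 of 25 (10.2%) and pluripotency genes 7 and 1 of 35 (17.3%). Interferon response genes had the fewest, with 3 and 1 of 32 (9.76%).

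**Figure D3:**
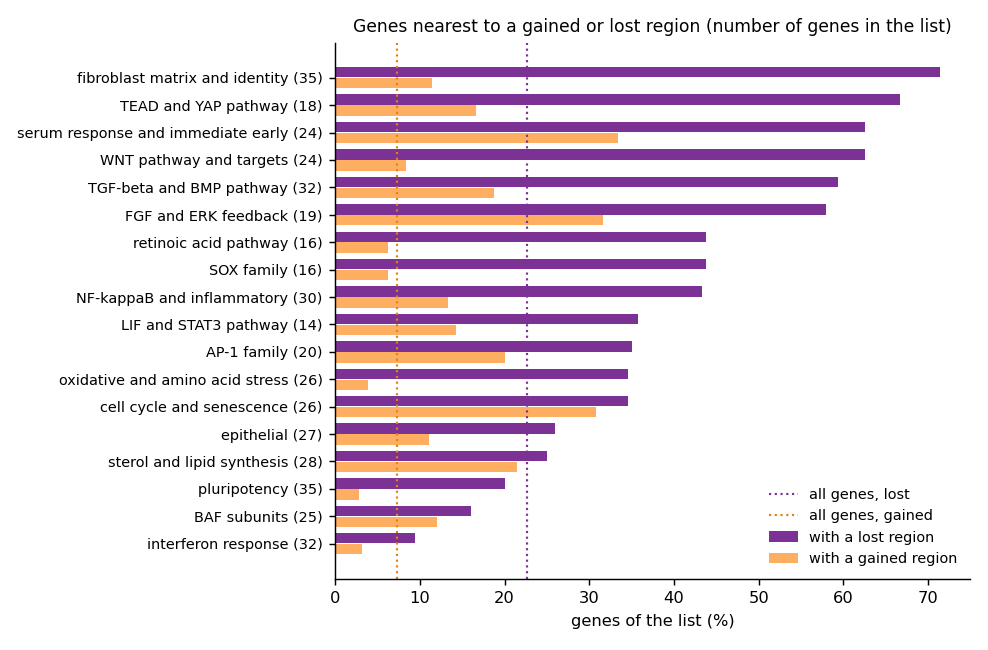
Percent of the genes of each list with a lost (purple) or gained (orange) region nearest to their start site, with the number of genes in parentheses. Dotted lines give all protein-coding genes, 22.7% for lost and 7.27% for gained. By this assignment fibroblast genes had the highest share with a lost region (25 of 35) and interferon genes the lowest (3 of 32).

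A lost promoter region was found for 2 of 35 fibroblast and 5 of 24 serum response genes, compared with 678 of all 21829 genes. The promoter of Tagln (chr9:45935272-45936330), an actin-binding protein of contractile cells and a target of SRF, had pileups of 26 with Nanog and 31 with NanogN70 on day 0, no peak in either library on day 1 and a pileup of 75 in MEFs. It was open in all 3 ESC libraries and in 6 later libraries. Other genes of the actin cytoskeleton were Tpm2 (14 and 16 on day 0, 30 in MEFs), Tpm1 (17 and 16, 27 in MEFs) and Flna (8 and 17, 28 in MEFs). A region upstream of Actb, 1.91 kb from the start site, had 22 and 24 on day 0 and was closed in MEFs. Cnn1, which encodes calponin, also had a lost promoter region.

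In the TEAD and YAP list, a region 1.80 kb upstream of Lats2, a kinase that restrains YAP, had pileups of 24 and 23 on day 0 and 61 in MEFs, and it was open in 2 later libraries. At Vgll4, a TEAD cofactor, the promoter had 9 and 14 on day 0 and 16 in MEFs. A region 34.7 kb upstream of Ccn1, a matricellular protein that YAP induces, had 19 and 17 on day 0 and 55 in MEFs. A region 63.6 kb upstream of Tead1 itself had 15 and 11, with 46 in MEFs. Each of these was without a peak in both day 1 libraries. Gained regions of the same list lay 9.72 kb upstream of Ccn1 (7 with Nanog and 9 with NanogN70 on day 1), in an intron of Tead1 (8 and 15, open in all 12 later libraries) and upstream of Ankrd1 (5 and 6).

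In the LIF, FGF and TGF-beta lists, 1 of 14, 2 of 19 and 2 of 32 genes had a lost promoter region. The region 1.62 kb inside Lifr, the receptor of LIF, had 8 and 13 on day 0 and 47 in MEFs. Fgfr1, an FGF receptor, had 8 and 12 on day 0 and 18 in MEFs, and Dusp5, a phosphatase that turns off ERK, had 17 and 15 on day 0 and 34 in MEFs. Neither had a peak in any later library. In the TGF-beta and BMP list, the promoters of Smurf1, a ubiquitin ligase for SMADs (9 and 17, 30 in MEFs), and Ltbp3, which holds latent TGF-beta (12 and 10, 18 in MEFs), were lost. The distal regions with the highest scores were upstream of the receptor Tgfbr2 (15 and 20, 47 in MEFs) and of Smurf2 (13 and 13, 40 in MEFs). For FGF genes they were in an intron of the transcription factor Etv1 (15 and 20, 72 in MEFs) and upstream of Fgf5 (12 and 16, 14 in MEFs).

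Wnt5a, a ligand of noncanonical WNT signaling, had the highest share of its day 0 regions lost among the genes with at least 8 lost regions. Of 12 regions nearest to its start site that were open in both day 0 libraries, 9 were lost, 2 closed in 1 path and 1 was kept. Day 0 pileups of the 9 lost regions ran from 4 to 12 with Nanog and from 6 to 12 with NanogN70, and 7 of the 9 had no peak in any later library. The promoter region (chr14:28511212-28511684) had 7 and 7 on day 0 and 13 in MEFs. The region at another start site (chr14:28504401-28505989) had 10 with Nanog and 18 with NanogN70 on day 0, no peak with Nanog and 10 with NanogN70 on day 1, and was open in 10 later libraries. In number alone, Lpp, an adhesion protein, had the most lost regions, with 12 of 27, followed by Pde4d (10 of 48), Foxp1 and Rbms3 (9 of 22 each) and Palld, an actin-associated protein (8 of 13).

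Lost regions of other lists were seen at Rnf43 (13 and 11 on day 0), a ubiquitin ligase that lowers WNT receptors, and at Tcf7l2 (13 and 9) and Dkk2 (7 and 17). For inflammatory genes they were at the promoters of Ccl7 (8 and 9, 32 in MEFs), a chemokine whose site is printed above, and Csf1 (9 and 9), and in Il1r1 (15 and 13, 49 in MEFs). For AP-1 genes they were upstream of Atf3 (14 and 20, 43 in MEFs), Fosl1 (15 and 15, 53 in MEFs) and Bach2 (14 and 16, 42 in MEFs). For retinoic acid genes the highest were at Aldh1a2 (15 and 8), Crabp2 (10 and 17), Rxra (12 and 8) and Cyp26b1 (13 and 15, 54 in MEFs). The SOX genes Sox6, Sox5, Sox3 and Sox4 had lost regions with day 0 pileups of 8 to 11. At Krt19, an epithelial keratin, the promoter had 7 and 9 on day 0 and 33 in MEFs.

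Of the remaining promoters, Gadd45a (10 and 12 on day 0), Hspa1b (9 and 9) and Lss (6 and 5), an enzyme of sterol synthesis, were closed in all 3 ESC libraries. Ccnd1, which encodes cyclin D1, had 9 and 16 on day 0 and 27 in MEFs, and it was open in all 3 ESC libraries and in 11 later libraries. Gdf3, a TGF-beta family ligand of pluripotent cells, went against the general pattern. Its promoter (chr6:122607643-122608807) was closed in MEFs, had 9 and 8 on day 0, was closed on day 1, and was open in all 3 ESC libraries and in 11 of the 12 later libraries. A region inside Col1a2 (10 and 11) was likewise closed in MEFs and open in all 3 ESC libraries, with 3 later libraries. In the pluripotency list a region 46.3 kb upstream of Klf4 (13 and 11, 14 in MEFs) was lost and was open in no ESC and no later library.

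Gained regions were mostly absent from both end points. Of the 2412, 1534 (63.6%, 61.6 to 65.5) were open in neither MEFs nor ESCs, compared with 39.0% of all regions closed in both day 0 libraries. Of these, 1183 were open in a later library and 351 (14.6% of the gained) in no other library. A peak was present in MEFs at 678 gained regions (28.1%), compared with 22.7% of all regions closed in both day 0 libraries and 18.0% of those opened in 1 path, and in the ESC libraries at 22.1%, 23.0% and 20.9%. ESC-only regions made up 166 (6.88%, 5.90 to 7.97), compared with 22.9% of all regions closed in both day 0 libraries. The regions closed in both day 0 libraries include those called only in MEFs or ESCs, while a gained region has day 1 peaks by the rule. The 39.0% and 22.9% are thus not a like background. Of the regions opened in 1 path, which also have a day 1 peak, 5.73% were ESC-only and 74.2% open in neither MEFs nor ESCs. Of the ESC-only regions closed on day 0, 0.316% were gained, compared with 1.05% of all classes together and 1.71% of those open in neither MEFs nor ESCs. An ESC-only region needs no peak in a reprogramming library, whereas a region open in neither does. The lower share of ESC-only regions is thus tied to how the regions were collected. Of the regions shared by MEFs and all 3 ESC libraries that had no peak in either day 0 library, 5.48% were gained, which was the highest share. Gained regions with a MEF peak had a median pileup of 9 in MEFs.

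Gained regions were open in more of the later libraries than regions that opened in 1 path. A gained region needed a peak in 2 libraries of day 1 and a region opened in 1 path needed it in 1. At least 1 of the 12 later libraries had a peak at 82.5% of gained regions, compared with 51.9% of the regions opened in 1 path and 51% of all regions closed in both day 0 libraries. The median gained region was open in 4 later libraries, against 1 for those opened in 1 path. On days 3, 5 and 7, 52.7%, 64.9% and 60.3% of gained regions were open with Nanog and 46.1%, 50.8% and 40.9% with NanogN70. On day 12 the shares were 17.8% and 17.7%. The background over regions closed in both day 0 libraries was 4.22% to 13.3% with Nanog and 5.54% to 15.9% with NanogN70, the last in the day 3 library, whose median pileup at the common regions was 60, the highest of all libraries. That background also includes regions called only in MEFs or ESCs.

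On later days the classes of gained regions differed, as did the classes over all regions. Gained regions open in neither MEFs nor ESCs were open in 61.0% (Nanog) and 43.7% (NanogN70) of cases on day 5 and in 6.52% and 3.19% on day 12. Gained ESC-only regions were open in 81.3% and 77.7% on day 5 and in 31.3% and 44.6% on day 12. Over all regions, those open in neither MEFs nor ESCs were open in 22.6% and 22.5% on day 5 and in 5.67% and 7.40% on day 12, and ESC-only regions in 7.22% and 10.1% and then in 5.85% and 14.2%. The class open in neither holds only regions with a peak in a reprogramming library, those of day 12 included, so its shares are not an independent background. By day 10 the NanogN70 library had 2.48% of the first class open, compared with 14.2% in the Nanog library.

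The strongest gained regions were closed in MEFs and in all ESC libraries. A region in an intron of Dennd1b, a Rab exchange factor (chr1:139064839-139065505), had a pileup of 16 with Nanog and 15 with NanogN70 on day 1, no peak on day 0 and a peak in 1 later library. A region in an intron of Vwc2, a BMP antagonist, had 12 and 15 and was open in 5 later libraries. The region in an intron of Daam2, a formin, had 12 and 12 on day 1, 19, 19, 21, 23, 14 and 8 on days 3 to 12 with Nanog, and 9, 11 and 8 on days 3, 5 and 7 with NanogN70, after which it had no peak. The region in an intron of Itga9, an integrin subunit, had 13 and 14 on day 1 and a peak in 10 later libraries, the last on day 12 with Nanog and on day 8 with NanogN70. The remaining 4 lay in gene-poor intergenic DNA on chromosomes 14, 16 and 17, with day 1 pileups of 9 to 17, and were open in 6 or 7 later libraries. The median gained region had a pileup of 6 in each path. The 8 were chosen by their day 1 scores, so their higher pileups follow largely from that choice.

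Among ESC-only regions, the strongest gain was an intergenic region on chromosome 13 (chr13:110555585-110556300) with 12 and 16 on day 1 and pileups of 0, 7 and 7 in the ESC libraries, where 0 stands for no peak. A region 83.9 kb upstream of Clvs1 had 9 and 9 on day 1, 14, 14 and 9 in ESCs, and was open in 11 later libraries. The regions at H3f3b, which encodes histone H3.3 (22 and 24 on day 1), and Fkbp15 (6 and 10) were exonic. The H3f3b region was open in 3 later libraries and that of Fkbp15 in 7.

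A gained promoter region was found for 8 of the 447 list genes and for 201 of all 21829 genes. Those of Nog, a secreted BMP antagonist (chr11:89301307-89302919), Dkk1, a secreted WNT antagonist (chr19:30549106-30549736), and Sox6, a SOX factor, were open in MEFs, in all 3 ESC libraries and in 11 or 12 later libraries. Nog had pileups of 8 and 8 on day 1 and 31 in MEFs, Dkk1 had 6 and 7 and 17, and Sox6 had 9 and 8 and 17. E2f2, an activator of S phase genes, had 7 and 7 on day 1 and 10 in MEFs and was open in 10 later libraries. None of these 4 had a peak on day 0 in either path. Cdk6 (8 and 5), which drives entry into the cell cycle, and Grhl2 (5 and 5), an epithelial regulator, were closed in MEFs and open in at least 2 ESC libraries. Prrx1 (7 and 7), a mesenchymal factor, and Pbrm1 (6 and 8), a PBAF subunit, were closed in MEFs and ESCs. All of these pileups were low, and the scores lay between 51.73 and 74.52.

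**Figure D4:**
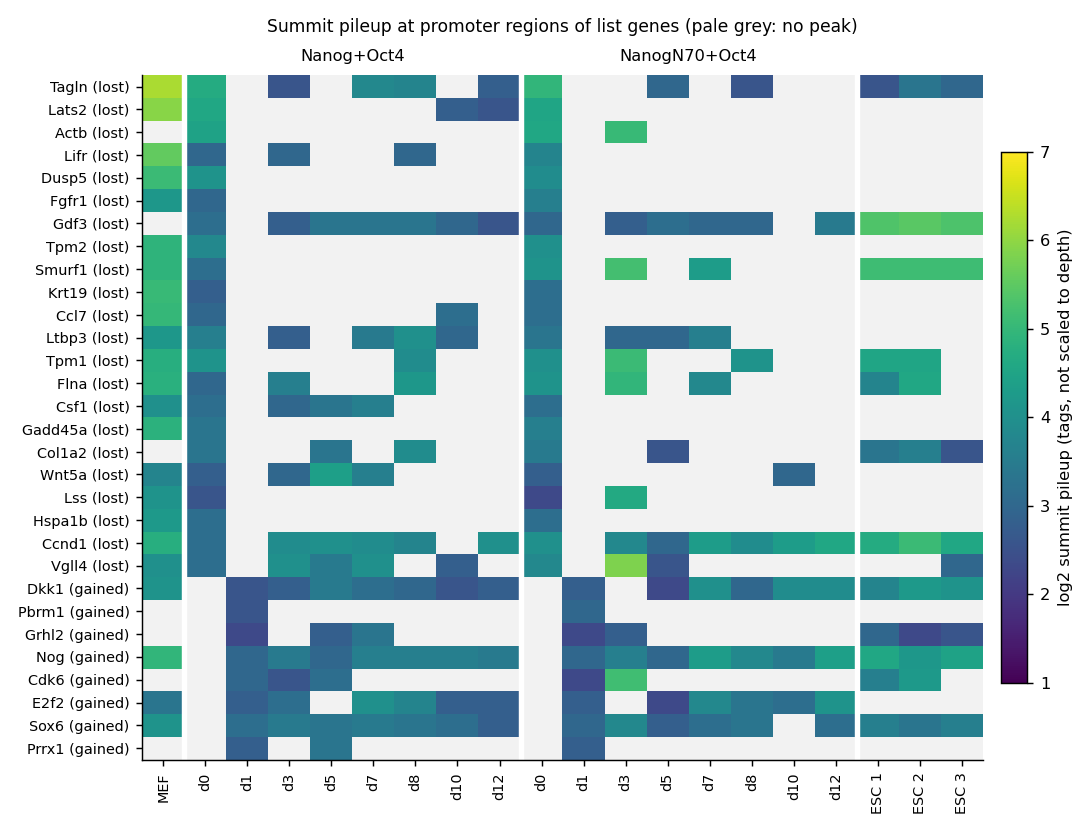
Summit pileup (log2, in tags, not scaled to depth) at lost and gained promoter regions of list genes in MEFs, in each library of both paths from day 0 to day 12 and in the 3 ESC libraries. Pale grey marks libraries without a peak. Most lost promoters, such as Lats2, Dusp5 and Fgfr1, had few or no peaks after day 0, while Ccnd1 and Gdf3 had a peak in 11 of 12 later libraries, and the gained promoters of Nog, Dkk1 and Sox6 had one in 11 or 12.

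Distal gained regions of list genes lay in an intron of Tgfbr3, a TGF-beta coreceptor (9 and 10 on day 1, open in 7 later libraries), and near Abca1, a cholesterol exporter (9 and 9), and Jun (8 and 5, open in 10 later libraries). All were closed in MEFs and ESCs. In the pluripotency list the single gained region lay 62.7 kb upstream of Tet2 (4 and 5). Near Bach2 a region was gained at chr4:32224229-32225036 (7 and 5) close to the one that was lost at chr4:32220973-32221417. Such neighbors were about as common as elsewhere, with 6.59% of gained regions within 5 kb of a lost one against 5.87% of all regions closed in both day 0 libraries.

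The sequence under gained regions differed from that under lost ones. Letters of OCT were in 0.954% of gained and 0.665% of all regions, those of SOX in 2.74% and 2.95%, and the OCT-SOX composite in 0 of 2412, which allows a share of up to 0.153% by the exact interval. A homeodomain site of the NANOG type (CCATTA) was in 3.45% of gained regions open in neither MEFs nor ESCs, in 3.29% of regions opened in 1 path and in 2.09% of all regions. KLF letters (GGGNGTGG) were in 0.788% of gained and 2.63% of all regions. CTCF sites were in 2.65% of gained regions with a MEF peak, in none of the gained regions open in neither MEFs nor ESCs and in 0.485% of all regions. NFY letters (CCAATCA) were in 5.42% of gained ESC-only regions (9 of 166) and 1.01% of all regions. That share rests on few regions, and it is 1 of many searched. Promoters made up 16.9% of the gained ESC-only and 10.4% of all regions, and the part of this was not tested. OCT and SOX letters thus had shares at gained summits near those of all regions, and KLF letters a lower one.

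E-boxes, the sites of basic helix-loop-helix and ZEB or SNAI factors, were searched after their values had been seen and are a description. In the 2207 distal gained regions CAGCTG was within 25 bp of the summit in 7.25% (6.20 to 8.41), compared with 4.62% of distal regions opened in 1 path, 2.71% of lost, 4.93% of kept and 4.67% of all distal regions. For CATCTG the shares were 9.52%, 7.44%, 4.82%, 6.15% and 5.74%. For CACCTG they were 3.62%, 2.36%, 0.888%, 1.72% and 3.45%. For CATGTG they were 9.06%, 7.31%, 5.36%, 5.45% and 5.44%, and for CATATG 4.44%, 3.08%, 1.94%, 1.93% and 1.52%. CACGTG was in 0.952% of gained and 1.06% of all distal regions. Gained regions open in neither MEFs nor ESCs had a mean GC content of 43.3% ± 8.33 (SD, n = 1534), below that of distal kept regions at 49.8% ± 9.56 (SD, n = 16159).

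Regions open in all 4 libraries differed in level between the days as well. Pileups were again divided by the library's median at the common regions. Of the 28093 kept regions, 734 were at least 2-fold lower on day 1 in both paths, 163 were at least 2-fold higher in both, and 32 moved 2-fold in opposite directions. Across these regions the log2 ratios of the 2 paths had a Pearson r of 0.401, a description over regions that share the same libraries. The median log2 ratio was 0.00 (Nanog) and 0.05 (NanogN70) at promoters, and −0.415 and −0.26 at MEF-only regions. The common regions used for scaling are themselves kept regions and include no MEF-only region. Medians near 0 among the other kept regions are thus in part set by the scaling.

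The regions with the largest drop in both paths were all open in MEFs, and those of Arhgap27 and Rapgef1 also in ESCs. The region in an intron of Col24a1, a fibrillar collagen (chr3:145420387-145420950), had a Nanog pileup of 38 on day 0 and of 8 on day 1, and a NanogN70 pileup of 63 and then 9 (log2 ratios −2.25 and −2.22). The region on chromosome 9 that is printed above with its TEAD letters (chr9:63895976-63896898) had 36 and 7 with Nanog and 30 and 5 with NanogN70. Arhgap27 (35 and 9, then 43 and 4), Rapgef1 (31 and 8, then 34 and 5) and Hecw2 (31 and 8, then 40 and 5) had the same pattern in the same order of paths and days. In MEFs these 5 regions had pileups of 71 to 109. The largest increases were smaller. The promoter of Tex14, a protein of germ cell bridges, had 25 and 48 with Nanog and 19 and 34 with NanogN70 (log2 ratios 0.94 and 1.42), and an intronic region of Kcnip1 had 17 and 31, then 28 and 34. Dpysl3, Zfp438 and a second region of Tex14 had log2 ratios of 0.85 to 1.4.

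Classes fixed from MEFs and ESCs were also followed whole, including regions that changed in 1 path. The open calls come from the same 4 libraries as the rule, so these shares are a description with no test. Of 74604 MEF-only regions, the Nanog libraries had 31.2% open on day 0 and 19.2% on day 1, and the NanogN70 libraries 36.5% and 16.7%. The mean difference of day 1 minus day 0 was −15.8 percentage points, and both paths were lower on day 1.

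The 55422 ESC-only regions did not move together. With Nanog 1.55% were open on day 0 and 2.57% on day 1, and with NanogN70 4.41% and 3.56%, a mean difference of 0.083 percentage points. Among the 31345 shared regions, 66.6% and 68.5% were open with Nanog and 77.7% and 66.3% with NanogN70, a mean difference of −4.76 points. With Nanog the difference was 1.84 points at shared and −11.9 points at MEF-only regions, and with NanogN70 it was −11.4 and −19.8 points.

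**Figure D5:**
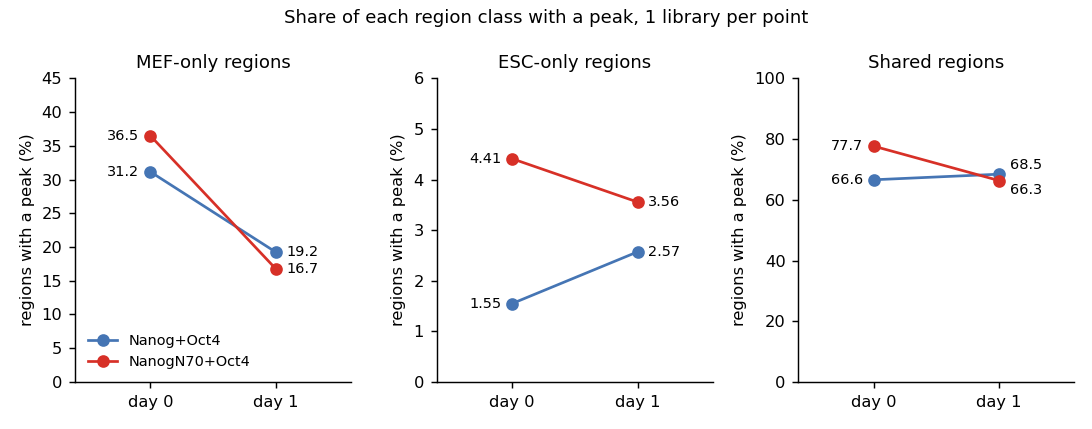
Share of MEF-only, ESC-only and shared regions with a peak (%) on day 0 and day 1 with Nanog+Oct4 (blue) and NanogN70+Oct4 (red), 1 library per point, with a separate y axis for each panel. MEF-only regions were lower on day 1 in both paths (31.2% to 19.2% and 36.5% to 16.7%), whereas ESC-only and shared regions were higher with Nanog and lower with NanogN70.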

How the data were processed

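ATAC-seq libraries of 20 samples were represented by their peak and summit lists. Per the labels and the methods, the authors trimmed paired reads (Trim Galore 0.6.4), aligned them to mm10 (Bowtie2 2.4.5), removed repetitive, low-quality and mitochondrial alignments (SAMtools 1.16.1) and called peaks in each library separately (MACS 1.4.2, all duplicates kept). No input control is named. The deposited peak score equals −10 times log10 of the p-value and is at least 50 in every list. The deposited summit pileup is a coverage signal in tags that is not scaled to depth. The depth was not given in the sources used here. Counts of open regions were therefore read beside the peak numbers and the pileups at the regions open in all 20 libraries. With duplicates kept, a pileup can count copies of 1 fragment.

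Peaks on chromosomes 1 to 19, X and Y were merged where they shared at least 1 bp, giving 335775 regions, of which 13 over exons of Nanog, Pou5f1, Ss18 and Gm1826 were left out. Peaks on 14 other sequence names were not used. MEF-only regions had a peak in the MEF library and none in ESCs, ESC-only regions in at least 2 of 3 ESC libraries and not in MEFs, and shared regions in MEFs and all 3 ESC libraries. Places came from GENCODE M21 and sequences from GRCm38, whose 21 chromosomes held every peak within their length. The 29 motifs were searched on both strands as letters. Percentages carry 95% Clopper-Pearson intervals where shown. Gained and lost counts were not tested, since the rule fixes them. The shares of each class that were open are likewise given without a test: an exact permutation test over the 4 libraries had been planned, but it uses the same open calls as the rule.

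Regions were named by rank, as the 8 gained and 8 lost regions with the highest lower score, the 5 such gained ESC-only and lost MEF-only regions, and the 5 kept regions with the largest and the smallest day 1 to day 0 ratio in the path nearer to 1 (pileup of at least 30). Of each of the 18 gene lists, up to 4 genes with a gained and 4 with a lost region were eligible, promoters first. Some items that this rule names are not reported here. The E-box set, the other regions of Wnt5a and the ranking of genes by number of lost regions were chosen after their values were seen. Members, lists and motifs were chosen with earlier results of these data known. The steps were tested on simulated peak lists. Python 3.11.15, numpy 2.4.6, pandas 2.3.3, SciPy 1.17.1 and matplotlib 3.10.9 were used. Alternatives were a minimum score of 100, equal peak numbers, other overlap rules, region sets and gene assignment, a wider motif window and leaving out each library.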

Additional observations from a re-analysis of the deposited data

Results flagged for a closer look

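The 2 paths moved in opposite directions in 2 of the 3 region classes. The share of ESC-only regions that were open was 1.02 percentage points higher on day 1 than on day 0 with Nanog, while with NanogN70 the difference was −0.857 points. The share of regions shared by MEFs and ESCs that were open differed by 1.84 points with Nanog and by −11.4 points with NanogN70. With 1 library per path and day the difference between the paths was not tested. The NanogN70 day 0 library had the most peaks of the 4 (107038) and a median pileup of 24 at the regions open in all libraries, compared with 16 in the other 3, and the part of this in the opposite signs was not tested.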

How the results depend on the processing

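Counts of gained and lost regions depended on the score and on single libraries, whereas the lower share of MEF-only regions open on day 1 kept its direction under every alternative run. Gained regions numbered 2412 as reported, 867 with a minimum score of 100, 3664 with equal peak numbers, 258 when open needed a score of 100 and closed no peak at 50 (chosen after seeing the data), and 3019 to 15295 without 1 library. Lost regions numbered 10285, 6359, 6766, 2787 and 14929 to 36405 in the same order. Without 1 library only the other path decides the open or closed call of that day, so the counts go up by construction. Gained counts were 8375 without NanogN70 day 0, 15295 without Nanog day 1 and 9595 without NanogN70 day 1, and lost counts were 36405 without Nanog day 0, 18549 without NanogN70 day 0 and 15638 without Nanog day 1. The MEF-only share of lost regions was 60.9%, then 68.0% (minimum score 100), 63.4% (equal peak numbers), 75.3% (100 for open and 50 for closed) and 33.5% to 59.3% without 1 library, the lowest without Nanog day 0. The ESC-only share of gained regions was 6.88%, then 5.31% (minimum score 100), 5.76% (all 3 ESC libraries), 8.29% (at least 1) and 5.28% to 6.89% without 1 library. Summit overlap, 25% coverage, regions of the 4 libraries only and a 250 bp margin moved none of these 4 values beyond their limits, 1.5 times for a count and the exact 95% interval for a share.

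The mean difference between days at MEF-only regions was −10.7 to −18.5 points under all alternatives, and −13.2 to −18.5 without 1 library. At ESC-only regions it turned from 0.083 to −0.238 points with a minimum score of 100 and ran from −1.35 to 1.52 without 1 library, turning without Nanog day 0 (−1.35) and without NanogN70 day 1 (−0.41). At shared regions it turned from −4.76 to 0.772 points with equal peak numbers and ran from −10.3 to 0.785 without 1 library, turning without NanogN70 day 0 (0.785). The share of lost regions with TEAD letters was 10.9% within 25 bp and 32.3% within 100 bp.

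The alternatives for the TEAD and AP-1 groups were chosen after seeing the data. The share of MEF-only regions that were lost was 50.7% with TEAD and 23.0% with AP-1 letters. With a day 0 score of at least 200 these were 18.0% and 4.36%, with a minimum score of 100 in all libraries 58.8% and 31.6%, with equal peak numbers 45.9% and 18.0%, and without 1 library 59.2% to 64.9% and 29.9% to 44.7%, the last without Nanog day 1. TEAD was above AP-1 in each of these. Of 36 counts of list genes, 24 stayed within 1.5 times (0 taken as 1) when regions were assigned by gene body, and of 58 motif shares 8 stayed within their exact 95% interval with the wider window. With the path as a replicate block, added after seeing the data and with no test, the mean differences between days were the same −15.8 (MEF-only), 0.083 (ESC-only) and −4.76 points (shared), since each path has 1 library on each day. Unknown depth, weak gained peaks and 1 library per path and day limit these counts.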

Other observations

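Some lost regions of list genes were open again in many later libraries. The region nearest to Irf8, an interferon regulatory factor, had pileups of 8 with Nanog and 9 with NanogN70 on day 0, no peak on day 1, and a peak in all 12 later libraries. The region downstream of Fos, an AP-1 subunit, had 9 and 6 on day 0 and was open in 11 later libraries, and the region upstream of Keap1, a sensor of oxidative stress, had 9 and 11 and was open in 9. All 3 were open in the 3 ESC libraries and in MEFs. Spry4, a feedback inhibitor of FGF signaling, had a gained region with 7 and 11 on day 1 that was closed in MEFs and ESCs and open in 11 later libraries. Cdh2, which encodes N-cadherin, had a lost region with 14 and 14 on day 0 and a gained one with 9 and 10 on day 1, and the gained one had no peak in any later library.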
